A study of Mus musculus with 4 samples.

Results

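The alveolar macrophages described here were 561 of the 7350 day 0 barcodes that passed the cell filter (7.63%, 95% Clopper-Pearson interval 7.04 to 8.26), and of 33732 such barcodes in the whole series. A barcode is the tag of 1 droplet, and a UMI is the tag of 1 captured RNA molecule. To pass, a barcode needed 500 or more genes and no more than 15% of its UMIs from mitochondrial genes. They were taken as alveolar macrophages, and are called members below, when Ear1, Ear2 and Fabp1 together had at least 10 UMIs and Chil3 had at least 5 UMIs. The comparison barcodes were the other 1781 barcodes of that library with at least 2 UMIs of Tyrobp, a signalling adaptor of myeloid and natural killer cells. Of the members, 560 met that Tyrobp condition too.

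The study profiled lung cells of Gramd2creERT2;mTmG mice by droplet single-cell RNA sequencing. In such mice a tamoxifen-inducible Cre driven from Gramd2, a gene of alveolar type I cells, switches a membrane tdTomato reporter to membrane EGFP. The day 0 library came from cells sorted for GFP straight from the lung, and the libraries of days 8, 13 and 20 from organoids grown from sorted cells with MLg fibroblasts, a mouse lung line, in Matrigel with the TGF-beta receptor inhibitor SB 431542, then enriched for EpCAM. All 4 libraries share the genotype and are labelled alveolar epithelial cells, while the age and number of the mice, and the tamoxifen schedule, are not described by the labels.

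Each day had 1 library, so no test was made, and all intervals are 95% intervals that cover counting error only. The day 0 library held 8902 barcodes and 31850454 UMIs. The 561 members held 5668726 UMIs, with 1277 to 60597 per barcode and a median of 8089 UMIs, against a median of 3677 UMIs in the comparison barcodes. A rule on UMI numbers favours deep barcodes, so this difference in depth is part of the choice. Of the day 0 barcode tags, 25 to 41 were also present in each of the other libraries, and 3 members shared a tag with day 8, 3 with day 13 and 2 with day 20.

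Alveolar macrophages live on the air side of the alveolus, where they take up inhaled particles and spent surfactant, a lipid-rich film. They arise from fetal monocytes under the cytokine GM-CSF, which induces the transcription factor PPAR-gamma, and they maintain themselves locally in the healthy lung. In mice they carry Siglec-F and CD11c on the surface, which sets them apart from the interstitial macrophages of the lung tissue and from blood monocytes.

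Of the genes that chose the members, Chil3 encodes the chitinase-like lectin Ym1, Ear1 and Ear2 encode eosinophil-associated ribonucleases, and Fabp1 encodes a fatty acid-binding protein known from liver and gut. Chil3 ran from 5 to 1940 UMIs per member with a median of 89, against a median of 0 in the comparison barcodes. Ear1, Ear2 and Fabp1 had medians of 6, 13 and 6 UMIs in members, against 0 each in the comparison barcodes. These are the values of the choice and are given as a description. Ear1 and Ear2 are near copies of each other, and their promoters are shown because they make plain how alike the pair is. The windows run from 250 bases before to 50 bases after the start, per RefSeq on GRCm38.p6, for Ear1 on the minus strand of chr14:43819590-43819889 and for Ear2 on the plus strand of chr14:44102404-44102703. Capitals mark bases with no identical partner in the other promoter.
Ear1: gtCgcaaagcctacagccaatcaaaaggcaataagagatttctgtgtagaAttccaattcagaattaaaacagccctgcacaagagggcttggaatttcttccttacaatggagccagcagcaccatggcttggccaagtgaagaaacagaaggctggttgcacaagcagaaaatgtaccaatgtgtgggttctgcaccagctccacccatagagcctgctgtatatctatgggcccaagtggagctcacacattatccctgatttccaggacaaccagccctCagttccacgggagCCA
Ear2: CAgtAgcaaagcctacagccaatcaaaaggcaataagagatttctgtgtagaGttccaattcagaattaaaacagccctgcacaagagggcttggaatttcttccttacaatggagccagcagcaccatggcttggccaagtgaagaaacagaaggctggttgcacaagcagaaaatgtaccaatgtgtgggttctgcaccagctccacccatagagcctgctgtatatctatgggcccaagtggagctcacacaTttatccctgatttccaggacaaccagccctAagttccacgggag
Of 297 aligned bases 294 were identical (99.0%). In the last 300 bases of the transcripts, where the reads of this kit fall, 38.2% of the 50-base windows of Ear1 were also present in Ear2, and 25.9% in Ear10. Reads from such windows fit the sequence of another Ear gene, so the separate levels of Ear1 and Ear2 are uncertain. The sum that the rule used could be affected as well. Ear6 and Ear10 had 0 UMIs in the members.

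Just inside the rule, 55 members had 10 to 12 UMIs of Ear1, Ear2 and Fabp1. Just outside it, 93 barcodes had 7 to 9 such UMIs and at least 5 UMIs of Chil3. The 55 had 515 CPM of Krt79, a keratin gene, and 1165 CPM of Abcg1, a cholesterol exporter, and the 93 outside had 426 and 1020 CPM. CPM is the sum of a gene's UMIs over the barcodes of a group, scaled to all UMIs of that group. In contrast, 15 barcodes with at least 10 UMIs of Ear1, Ear2 and Fabp1 but under 5 of Chil3 had 3.57 CPM of Krt79. Of the comparison barcodes, 480 had at least 3 UMIs of Ear1, Ear2 and Fabp1, with 122 CPM of Krt79 and 358 CPM of Abcg1, below the 499.9 and 1350 CPM of all members, and a median of 4 Chil3 UMIs. Ear2 alone was met in 62.4% of monocyte-marked barcodes, a group defined below. A further group of 86 shallow comparison barcodes, with no marker list of another immune cell at 3 UMIs, had 8878 CPM of Chil3 and 842 CPM of Marco.

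**Figure D1:**
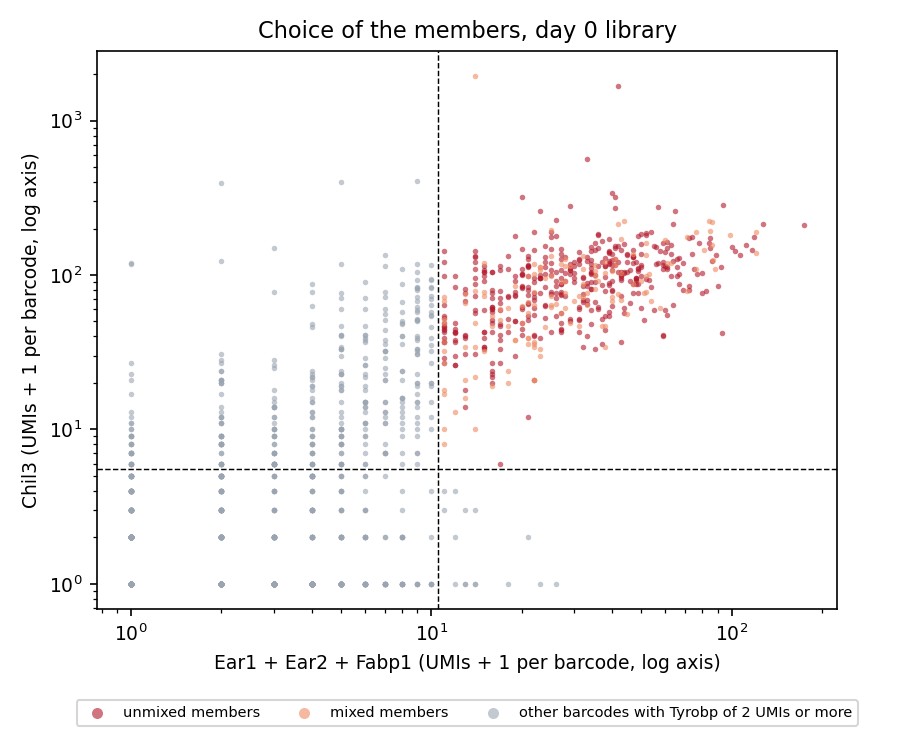
Each point is 1 day 0 barcode, with Ear1, Ear2 and Fabp1 UMIs plus 1 on the x axis and Chil3 UMIs plus 1 on the y axis, both on log axes. Dashed lines mark the rule at 10 and 5 UMIs. Members are split into 422 unmixed and 139 mixed barcodes, and the comparison barcodes grade into the members along the Ear1, Ear2 and Fabp1 axis.

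Many members carried the RNA of another cell type in amounts far above the rest. The counts of most gene lists are therefore given for all members and without these. Counts for marker lists of other immune cells, and contrasts with the marked groups defined below, took all members. A member was called mixed with at least 10 UMIs of the markers of interstitial macrophages, NK and T cells, B cells, alveolar type II or type I cells, endothelium or mesenchyme, with at least 10 UMIs of S100a8 and S100a9, or with at least 100 UMIs of Scgb1a1. This criterion was set after seeing the data. It took 139 members (24.8%, 21.3 to 28.6), which held 44.7% of the members' UMIs. Of these, 93 met at least 2 of the criteria. The median depth was 15050 UMIs in mixed and 7166.5 UMIs in unmixed members, and 45 of the 46 members over 20000 UMIs were mixed. The criterion counts UMIs without scaling to depth, so a deep barcode meets it more easily. This difference in depth is thus bound up with the choice. A doublet score (Scrublet, highest scores at 0.8% per 1000 barcodes) removed 56 mixed members (40.3%) and 11 of 422 unmixed members (2.61%). Whether the foreign RNA came from a second cell in the droplet was not tested.

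The genes known from alveolar macrophages were high as a group, beyond those that chose the cells. Of 28 genes measured on a list of alveolar macrophage identity, 26 were at least 2-fold higher in members and 0 lower, with a median log2 ratio of 2.61. Across all 6622 genes measured at 20 CPM or more, 7.49% were at least 2-fold higher, 9.56% were lower, and the median was -0.02. In unmixed members 27 of 29 list genes were higher and 1 lower, with a median of 3.07, against 11% higher and 15.3% lower of 6767 genes. A gene counted as higher or lower here when its CPM differed at least 2-fold, was at least 20 in the larger group and had an interval of the ratio that excludes 1. The members were defined by the same RNA counts, so these counts describe them and test nothing. Of 496 genes higher in all members, 495 were also higher in unmixed members, and of 633 lower genes, 633 were.

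Krt79 and Abcg1, known markers of these cells that were not part of the rule, were both high in the members. Krt79 ran from 0 to 22 UMIs per member with a median of 4, against a median of 0 in the comparison barcodes. It had 499.9 CPM in members and 55.1 CPM in comparison barcodes (log2 ratio 3.18, 3.05 to 3.32). Abcg1 ran from 0 to 60 UMIs with a median of 12 in members, against a median of 0. It had 1350 CPM in members and 181 CPM in comparison barcodes (2.90, 2.83 to 2.98). Single barcodes of both groups overlapped for both genes.

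Surface proteins known from alveolar macrophages followed. Siglecf, which encodes Siglec-F, had 82.9 CPM in members and 8.12 CPM in comparison barcodes (log2 ratio 3.35). Itgax, which encodes CD11c, had 286 and 86.8 CPM (1.72), and Marco, a scavenger receptor that binds bacteria and particles, 689 and 104 CPM (2.73). Mrc1, the mannose receptor, had 766 and 171 CPM (2.16). Marco was detected in 81.3% and Mrc1 in 98.8% of members. Plet1, a surface protein also known from placenta, had 564 CPM in members and 67.4 CPM in comparison barcodes (3.07). Car4, a carbonic anhydrase, had 265 CPM in members and 35.3 CPM in comparison barcodes (2.91), but 528 CPM in endothelial-marked barcodes, so it set members apart only within the Tyrobp barcodes. Cd2 (0.73) and Epcam (-0.61) were the 2 measured identity genes short of 2-fold, and Epcam was lower in unmixed members (-1.18).

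Within the library the nearest populations were compared in turn. Comparison barcodes were split by marker lists into 320 marked by interstitial macrophage, 482 by monocyte and 272 by neutrophil genes, beside dendritic, NK and T, and B groups. Against interstitial macrophage-marked barcodes, 25 of 28 identity genes were higher in members (median log2 ratio 2.39), where 7.49% of 6611 genes were higher. Against monocyte-marked barcodes 25 of 28 were higher (1.90), where 8.12% of 6527 genes were. Against neutrophil-marked barcodes 26 of 28 were higher (2.26), where 14.1% of 6653 genes were. Chil3, a gene of the rule, had 9862 CPM in members, 2136 in monocyte-, 1573 in neutrophil-, 930 in interstitial macrophage- and 167 in dendritic-marked barcodes. Siglecf had 82.9 CPM in members, and 14.5, 13.2, 4.52 and 0.802 CPM in the same order of groups. These groups also held barcodes near the rule. Without the 480 comparison barcodes with at least 3 UMIs of Ear1, Ear2 and Fabp1, the comparison level was 2.01 CPM for Siglecf (log2 ratio 5.36), 20.0 CPM for Krt79 (4.64) and 48.5 CPM for Marco (3.83). The 480 were left out by genes of the rule and carried identity genes themselves. Larger ratios thus come with leaving them out and are given as a description.

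**Figure D2:**
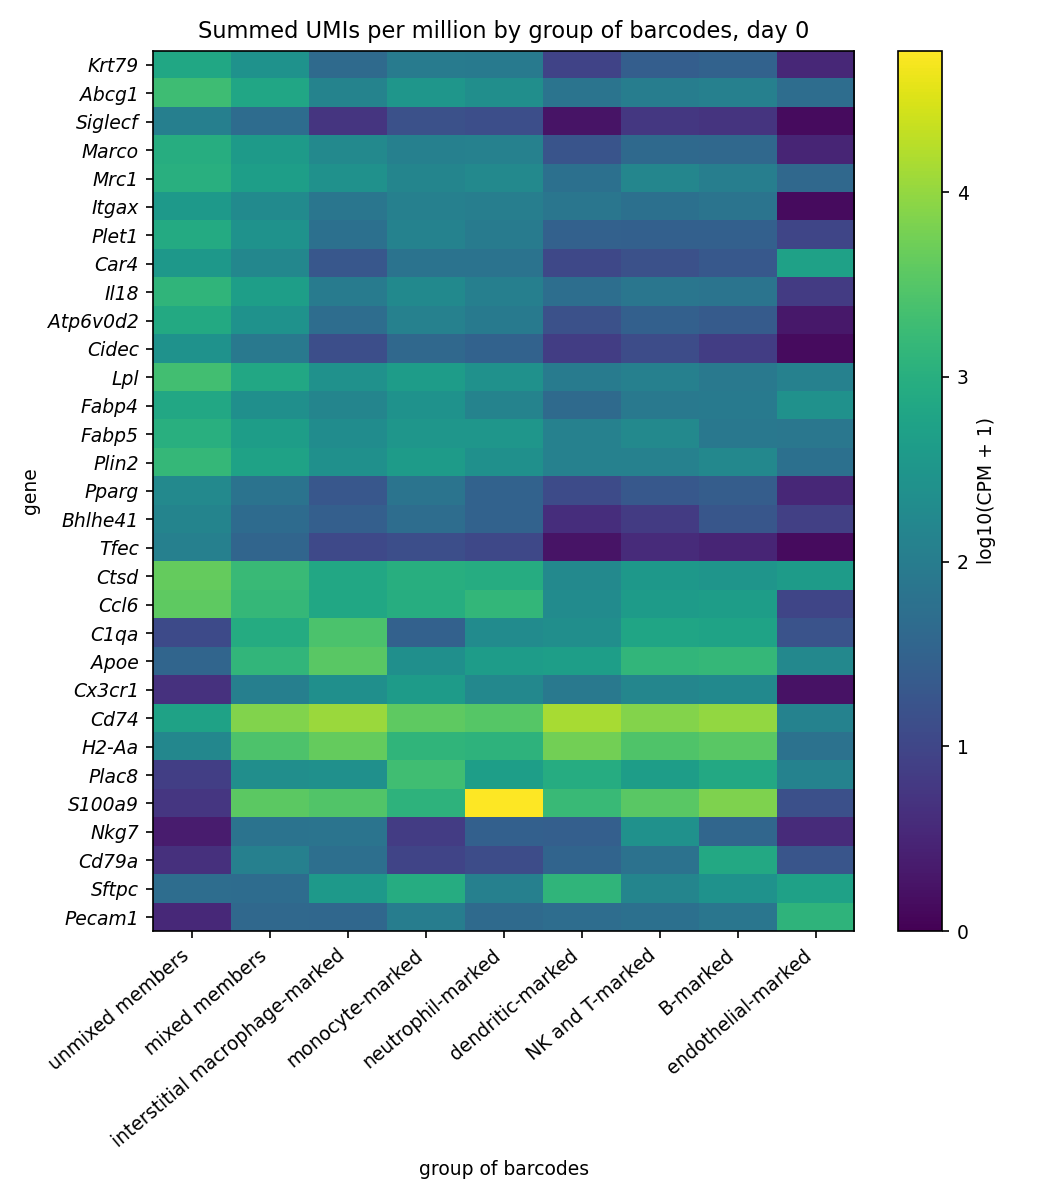
Colour gives log10(CPM + 1) of summed UMIs for genes in rows and groups of day 0 barcodes in columns, with unmixed and mixed members at the left. Krt79, Siglecf, Cidec and Tfec have their highest level in unmixed members, C1qa and Apoe in interstitial macrophage-marked, S100a9 in neutrophil-marked and Pecam1 in endothelial-marked barcodes. For C1qa mixed members (838 CPM) lie between unmixed members (10.8 CPM) and interstitial macrophage-marked barcodes (2579 CPM).

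For shares of barcodes with a UMI, every barcode was thinned at random to 2000 UMIs, which left out 6 of 561 members, 45 of 320 interstitial macrophage-marked, 127 of 482 monocyte-marked and 669 of 1318 endothelial-marked barcodes. The last group, with a median of 1978 UMIs before thinning and no UMI of Tyrobp or Ptprc, served as background for free RNA. Krt79 was met in 64.0% of members (88.8% unthinned), 7.64% of interstitial macrophage-marked, 8.73% of monocyte-marked and 0.616% of endothelial-marked barcodes. Il18 was met in 83.4% of members, 20.0%, 19.4% and 0.924% in that order, and Siglecf in 16.0%, 0.364%, 2.82% and 0.154%. These 3 genes were thus far above the background in members. Car4 (36.2% of members, 24.5% of endothelial-marked barcodes) and Cd9, a tetraspanin (98.6% and 88.4%), were common in both.

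**Figure D3:**
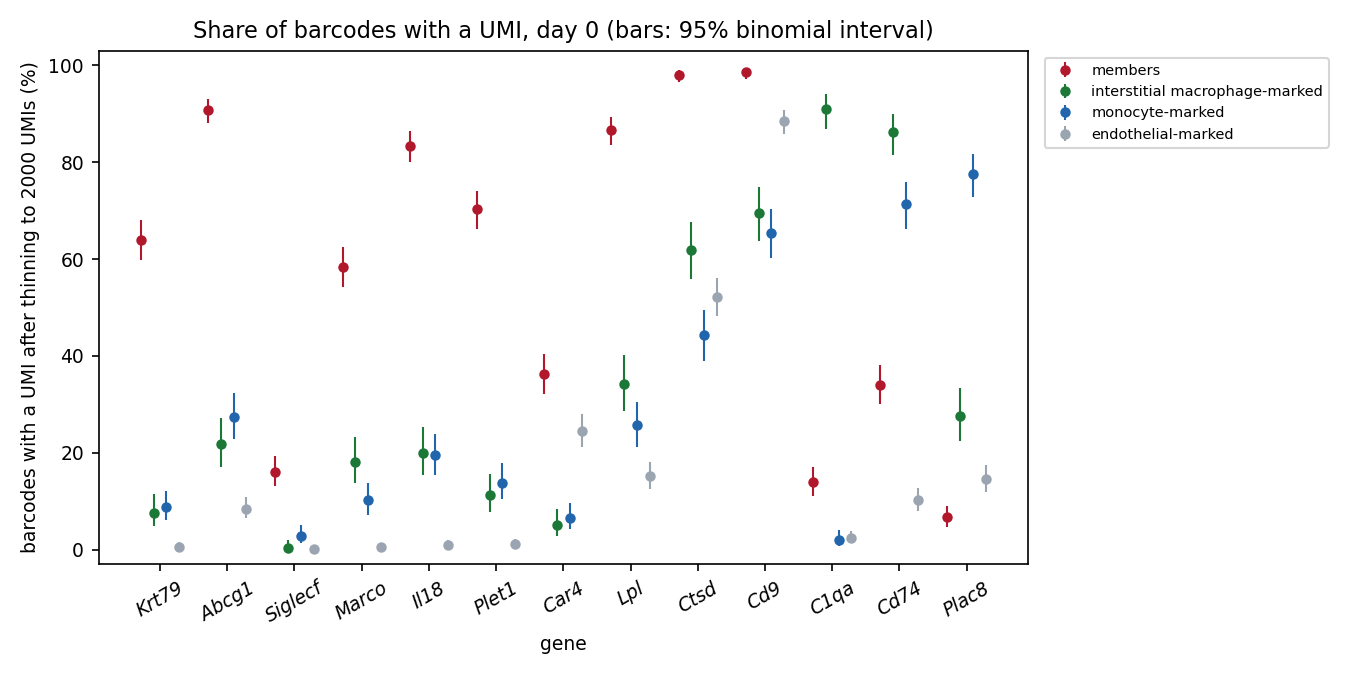
Points give the share of barcodes with at least 1 UMI of a gene (y axis, percent) after thinning to 2000 UMIs, and bars the 95% Clopper-Pearson interval. Members stand above the interstitial macrophage- and monocyte-marked barcodes for genes from Krt79 to Cd9, and below both for Cd74. For C1qa and Plac8 the members lie well below the group each gene marks.

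The 25 largest ratios in members, after genes of the rule were set aside, included transporters, enzymes and a neuropeptide. Scgb3a1, a secretoglobin of airway cells, came first with 678 CPM in members and 30.6 CPM in comparison barcodes (log2 ratio 4.47), but 98.8% of its UMIs in members lay in 5 barcodes and 67.2% in 1. In unmixed members Scgb3a1 had 10.5 CPM, against 30.6 CPM in comparison barcodes (-1.54), the opposite direction. Gal, the neuropeptide galanin, had 80.6 and 4.67 CPM (4.11, 3.67 to 4.58) with UMIs in 235 members and 1.97% of them in the fullest barcode. Cpne5, a copine that binds membranes with calcium, had 99.1 and 6.50 CPM (3.93), and Flvcr2, a membrane transporter, 58.4 and 5.58 CPM (3.39). In unmixed members the ratios of Gal, Cpne5 and Flvcr2 were 4.52, 4.31 and 3.93.

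Of the others, Acaa1b, a peroxisomal thiolase of fatty acid breakdown, had 168 CPM in members and 17.2 CPM in comparison barcodes (3.29). Kcnn3, a calcium-activated potassium channel, had 98.3 and 10.4 CPM (3.25). Solute carriers among the 25 were Slc39a2 for zinc (3.17), Slc7a2 for cationic amino acids (3.09) and Slc9a4 for sodium and protons (3.01). Lepr, the leptin receptor, had 61.9 CPM in members, with UMIs in 40.1% of them (3.14), and Gdf15, a TGF-beta family cytokine, 63.5 CPM in members and 7.92 CPM in comparison barcodes (3.00). Gdf15 was met in 21.0% of members, while Slc7a2 was met in 92.0%. Wfdc10 (3.37), Perp (3.12), Ttyh2 (3.09), Cracd (3.04), B3gnt7 (3.02), Gmpr (3.00) and Plekha6 (3.00) completed the set with Siglecf, Tfec, Krt79, Cidec, Atp6v0d2, Il18 and Plet1. Each of them apart from Scgb3a1 had a larger ratio in unmixed members, from 3.38 for Gmpr to 4.52 for Gal. Only the members were filtered for foreign RNA, while the comparison barcodes stayed the same. Larger ratios of this kind come with that filter and are given as a description.

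Lipid handling, a known task of these cells, was high in its uptake, storage and efflux genes. Of 26 measured genes 16 were higher in members and 3 lower, with a median log2 ratio of 1.35, beside 7.49% and 9.56% of all genes. In unmixed members 18 were higher and 3 lower (1.64), beside 11% and 15.3%. Lpl, which frees fatty acids from lipoproteins, had 1454 CPM in members and 232 CPM in comparison barcodes (2.65). The lipid droplet genes Plin2 and Cidec had ratios of 2.19 and 3.15, with 1068 and 185 CPM in members and 234 and 20.8 CPM in comparison barcodes. The fatty acid carriers Fabp4 and Fabp5 had 509.8 and 757 CPM in members, against 138 and 207 CPM (1.89 and 1.87). Among efflux genes Abca1 had 102 and 38.6 CPM (1.40). Lpin1, a phosphatidate phosphatase, had 196 and 27.7 CPM (2.82), the phospholipase Pla2g15 218 and 38.0 CPM (2.52), and Nceh1, a cholesterol ester hydrolase, 355 and 64.9 CPM (2.45). The 3 lower genes were Apoe (-1.16), the secreted phospholipase Pla2g7 (-1.95) and the desaturase Scd1 (-1.49). Cd36 (0.46), Npc2 (0.11) and Msr1 (-0.21) were within 2-fold.

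The lysosome list had 10 higher and 0 lower of 27 genes (median 0.87), beside 7.49% and 9.56% of all genes. In unmixed members 15 were higher and 1 lower (1.14), beside 11% and 15.3%. Ctsd, an aspartic protease, had 3125 CPM in members and 628 CPM in comparison barcodes (2.31). Atp6v0d2, a subunit of the proton pump, had 545 and 62.6 CPM (3.12), and Ctsk, a cysteine protease, 110 and 33.1 CPM (1.74). Ctsb (0.19), Ctsl (-0.51) and Lgmn (0.10) were within 2-fold, so the increase was not shared by all proteases. Against monocyte-marked barcodes 4 of 27 lysosome genes were higher in members (median 0.34), where 8.12% of all genes were, the smallest of the 3 class contrasts.

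Scavenger and uptake receptors were mixed, with 12 of 28 higher and 6 lower (median 0.48; unmixed 13 and 8, median 0.72), beside 7.49% and 9.56% of all genes (unmixed 11% and 15.3%). Besides Marco and Mrc1, Olr1, a receptor of oxidised lipoprotein, had 235 CPM in members and 29.6 CPM in comparison barcodes (2.98). The receptors of dying cells Mertk and Axl had 139 and 423 CPM in members, against 23.0 and 77.5 CPM (2.59 and 2.45). The C-type lectins Clec7a (1.43) and Clec4n (2.29), Tlr2 (1.52) and Tlr4 (1.69) were higher as well. Itgam, which encodes CD11b, was lower with 43.6 CPM in members and 176 CPM in comparison barcodes (-2.01), and had 2.23 CPM in unmixed members. Cd14 (-1.30), Clec4e (-2.17), Fcgr2b (-1.09), Timd4 (-1.44) and Cd163 (-1.63) were lower too.

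The list of regulators tied to alveolar macrophage identity, which also holds the enzyme Car4, was uneven: 9 of 19 were higher and 1 lower, with a median log2 ratio of 0.20 (unmixed 9 of 20 higher and 3 lower, median 0.55). Among all genes 7.49% were higher and 9.56% lower. Against monocyte-marked barcodes 5 of 20 were higher and 2 lower (0.18), beside 8.12% and 8.56% of all genes. Against interstitial macrophage-marked barcodes 8 of 19 were higher and 3 lower (0.45), beside 7.49% and 9.2%. Against neutrophil-marked barcodes 9 of 19 were higher and 2 lower (0.29), beside 14.1% and 12.8%. The following values are against all comparison barcodes. Pparg had 124 CPM in members and 31.0 CPM in comparison barcodes (interval of the log2 ratio 1.80 to 2.20). Bhlhe41 had 99.7 and 23.5 CPM (2.08), and Tfec, of the MiT family, 79.6 and 8.22 CPM (3.27). Egr2 (1.88), Mitf (1.82), Rxra (1.29), Cebpa (1.19) and Runx1 (1.10) were higher as well, along with Car4, an enzyme on this list. The general myeloid factors Spi1 (0.02) and Cebpb (0.14) had about the same level in both groups. Klf2 was lower at 210 CPM in members and 646 CPM in comparison barcodes (-1.62).

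Factors of other macrophages and monocytes showed 0 of 10 higher and 6 lower (median -1.07; unmixed 0 and 6, median -1.93), beside 9.56% lower among all genes. Against monocyte-marked barcodes 1 of 10 was higher and 3 lower (-0.29), beside 8.12% and 8.56% of all genes. Against neutrophil-marked barcodes 0 of 10 were higher and 2 lower (0.21), beside 14.1% and 12.8%. Maf, which restrains self-renewal in other macrophages, had 50.5 CPM in members and 107 CPM in comparison barcodes (-1.08). In unmixed members Maf had 2.55 CPM. Nr4a1 (-2.15), Id3 (-2.07), Tcf4 (-1.51) and Irf8 (-1.07) were lower too.

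On the cytokine side, 4 of 15 signalling genes were higher and 3 lower (median 0.46), beside 7.49% and 9.56% of all genes. In unmixed members the split was even, with 5 higher and 5 lower (0.72), beside 11% and 15.3%. The beta chains of the GM-CSF receptor family, Csf2rb and Csf2rb2, had 242 and 82.4 CPM in members, against 105 and 30.6 CPM (1.21 and 1.43), and Csf2ra, the alpha chain, had 248 and 180 CPM (0.46). Cish and Socs2, feedback genes of STAT5, had 62.3 and 48.7 CPM in members, against 16.8 and 22.4 CPM (1.89 and 1.12). Csf1r, the M-CSF receptor, was lower with 164 CPM in members and 343 CPM in comparison barcodes (-1.06), and Csf3r (-1.58) and Smad7 (-1.20) were too. Tgfbr1 (0.67), Tgfbr2 (0.94) and Tgfb1 (0.50) were within 2-fold.

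Among secreted factors 3 of 20 were higher and 12 lower (median -1.07; unmixed 4 and 13, median -1.84), beside 7.49% and 9.56% of all genes (unmixed 11% and 15.3%). The direction depended on the population compared. Against monocyte-marked barcodes 8 of 17 were higher and 4 lower (0.58), beside 8.12% and 8.56% of all genes. Against neutrophil-marked barcodes 3 of 17 were higher, near the 14.1% of all genes, and 5 lower, beside 12.8% (0.52). Against interstitial macrophage-marked barcodes 3 of 20 were higher and 12 lower (-1.39), beside 7.49% and 9.2%. Il18 had 931 CPM in members and 110 CPM in comparison barcodes (3.08), the chemokine Ccl6 2794 and 682 CPM (2.03), and Il1rn, the IL-1 receptor antagonist, 73.0 and 28.0 CPM (1.38). Il1b was lower, with 225 CPM in members, 9.57 CPM in unmixed members and 895 CPM in comparison barcodes (-1.99). Neutrophil-marked barcodes had 4296 CPM of Il1b, and without them the log2 ratio of Il1b was -1.36. Cxcl2 (-1.34), Ccl4 (-1.72) and Ccl9 (-1.19) were lower, while Tnf (0.75) and Ccl3 (-0.76) were within 2-fold. Of interferon response genes 3 of 6 were lower, led by Irf7 (-2.50), and of immediate early and heat shock genes 5 of 13, among them Junb (-1.38), and none of either list was higher. In unmixed members 4 of 6 and 7 of 13 were lower. Fos (-0.51) and Jun (-0.41) were within 2-fold.

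Genes of antigen presentation were low. Of 9 measured MHC class II and co-stimulation genes 0 were higher and 5 lower (median log2 ratio -1.01), where 9.56% of all genes were lower, and 8 were lower in unmixed members (-3.38), where 15.3% were. H2-Aa had 1296 CPM in members and 3186 CPM in comparison barcodes (-1.30), and Cd74, the invariant chain, 3566 and 8375 CPM (-1.23). In unmixed members H2-Aa had 160 CPM and Cd74 564 CPM, and in mixed members 2700 and 7279 CPM. Ciita, the master regulator of these genes, had 32.8 CPM in members, 6.38 CPM in unmixed members and 66.3 CPM in comparison barcodes. Dendritic-marked barcodes had 13808 CPM of Cd74 and monocyte-marked barcodes 3911 CPM. Against interstitial macrophage-marked barcodes 6 of the 9 genes were lower in members, where 9.2% of all genes were. Against monocyte-marked barcodes 0 of 9 were lower, where 8.56% of all genes were, and 1 was higher. That contrast took all members, mixed ones included. The summed level of the whole list was 1595 CPM in unmixed members, 16367 CPM in mixed members and 8057 CPM in monocyte-marked barcodes. All members together had 8198 CPM, close to the monocyte-marked barcodes. Unmixed members lay below them in this sum, but only the members were filtered for foreign RNA, so that difference is given as a description.

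The complement genes divided in the same way between mixed and unmixed members. C1qa had 381 CPM in all members, 838 CPM in mixed members, 10.8 CPM in unmixed members and 847 CPM in comparison barcodes (-1.15 for all members). After thinning, C1qa was met in 13.9% of members, 2.88% of unmixed members, 90.9% of interstitial macrophage-marked and 2.31% of endothelial-marked barcodes, so in unmixed members it was at the background. Apoe had 639 CPM in members, 35.1 CPM in unmixed members and 1428 CPM in comparison barcodes. C1qa is among the genes that chose the unmixed members, whereas Apoe and Cd74 are not. Cfb, of the alternative pathway, was the 1 higher of 10 complement genes, with 28.6 CPM in members and 10.4 CPM in comparison barcodes (1.46). The 5 lower ones compare with 9.56% of all genes. In unmixed members 1 was higher and 6 lower, beside 11% and 15.3% of all genes. Against monocyte-marked barcodes 3 of 9 complement genes were higher in all members and 0 lower, beside 8.12% and 8.56% of all genes. The summed level of the list was 795 CPM in unmixed members, 2804 CPM in mixed members and 919 CPM in monocyte-marked barcodes.

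Iron and antioxidant genes showed 2 of 15 higher and 2 lower (median 0.36; unmixed 3 and 2), beside 7.49% and 9.56% of all genes, so the list as a whole was near the background. Fth1, the ferritin heavy chain, had 13482 CPM in members and 6574 CPM in comparison barcodes (1.04), and the peroxiredoxin Prdx1 1200 and 551 CPM (1.12). The iron exporter Slc40a1 (-1.48) and the divalent metal transporter Slc11a1 (-2.26) were lower.

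**Figure D4:**
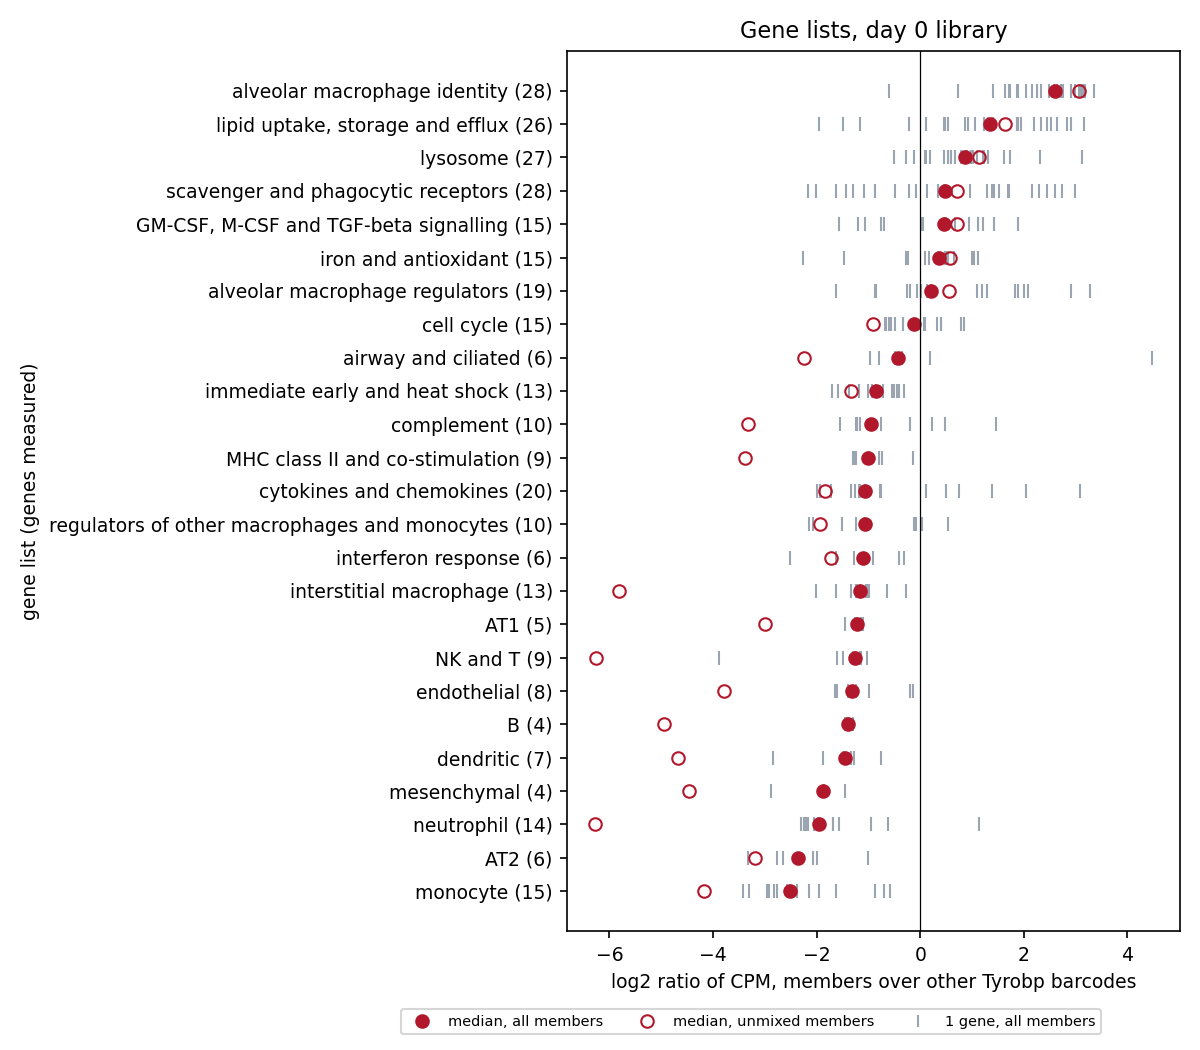
Each row is a gene list with the number of genes measured, and the x axis is the log2 ratio of CPM in members over comparison barcodes. Ticks are single genes, filled circles the median for all 561 members and open circles the median for the 422 unmixed members. Identity (2.61 and 3.07), lipid (1.35 and 1.64) and lysosome genes lie to the right in both, and MHC class II, complement and the lists of other cell types move further left in unmixed members. The lists of interstitial macrophage, NK and T, B, AT2, AT1, endothelial and mesenchymal genes, and S100a8 and S100a9 of the neutrophil list, were used to choose the unmixed members.

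The marker lists of other immune cells were lower in members than in comparison barcodes, beside 9.56% lower among all genes (15.3% in unmixed members). The comparison barcodes include groups marked by these same lists, and the direction depended on the group compared. Against monocyte-marked barcodes, 6 of 10 interstitial macrophage genes were higher in all members and 2 lower. In that contrast 6 of 6 NK and T, 3 of 3 B and 4 of 11 neutrophil genes were higher, and 1 neutrophil gene lower. Among all genes 8.12% were higher and 8.56% lower there. Against all comparison barcodes, 10 of 13 interstitial macrophage genes were lower in members and 0 higher. The summed level of all 14 was 1387 CPM in members and 3190 CPM in comparison barcodes. It was 3018 CPM in mixed and 69.5 CPM in unmixed members, a gap that the choice of mixed members fixes, since these genes were part of it. For monocyte genes 12 of 15 were lower (median -2.51), with sums of 1080 CPM in members and 3547 CPM in comparison barcodes. Monocyte genes were not part of that choice, and their sum was 1444 CPM in mixed and 786 CPM in unmixed members. Plac8 had 105 CPM in members, 6.70 CPM in unmixed members and 795 CPM in comparison barcodes (-2.92), and Ly6c2 18.3, 0.638 and 125 CPM (-2.77). Of 14 neutrophil genes 11 were lower and 1, Wfdc21, higher, with 407 CPM in members, 509 CPM in unmixed members and 185 CPM in comparison barcodes (1.14). Of 9 eosinophil, basophil and mast cell genes 8, among them Prg2, Epx and Il5ra, had 0 UMIs in the members. Siglecf and the Ear genes, also known from eosinophils, thus came without them.

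Surfactant and club cell RNA was met in members no more often than in the endothelial-marked background. Sftpc, the surfactant protein C gene, had 49.2 CPM in members, 494 CPM in comparison barcodes and 526 CPM in endothelial-marked barcodes. It was met in 11.7% of thinned members and 24.2% of endothelial-marked barcodes. Scgb1a1, the club cell secretoglobin, was met in 92.1% and 99.5%, and the lowest member had 2 UMIs of it. A single member held 49.4% of the 45638 Scgb1a1 UMIs of all members.

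Reporter RNA was lower in members than in the other groups named here. EGFP had 37.0 CPM in members (32.2 to 42.4), 28.4 CPM in unmixed members, 75.4 CPM in comparison barcodes and 134 CPM in endothelial-marked barcodes. After thinning EGFP was met in 6.31% of members and 16.8% of endothelial-marked barcodes. An endothelial-marked barcode held up to 26 EGFP UMIs, so this group may not be a plain background for the reporter. Whether the EGFP RNA of the members was free RNA was not tested. tdTomato had 158 CPM in members and 288 CPM in comparison barcodes. Of 203 members with at least 2 reporter UMIs, 4 (1.97%, 0.539 to 4.97) had at least 80% EGFP and 128 had at least 80% tdTomato, against 19 and 484 of 744 comparison barcodes. The members thus stood in a library sorted for GFP and labelled as epithelial, with the RNA of macrophages and little EGFP RNA. How they passed the sort was not tested.

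The lowest ratios in members were those of other blood and lung cells. Gzma, a granzyme of NK and T cells, had 7.94 CPM in members and 117 CPM in comparison barcodes (log2 ratio -3.88). The monocyte genes Ifitm6 (-3.42), Adgre4 (-3.30), Cd300e (-2.95), Eno3 (-2.82), Plac8 and Ly6c2, the plasmacytoid dendritic gene Siglech (-2.84), and Sftpc (-3.33), Stfa2l1 (-3.15), Thbs1 (-3.09), Rarres2 (-3.07), Saa3 (-2.97), Prg4 (-2.90) and Ceacam1 (-2.82) were the others of the 15. Thbs1 and Saa3 had 14.5 and 52.7 CPM in members, 0.319 and 0.957 CPM in unmixed members, and 124 and 413 CPM in comparison barcodes.

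The spread of single genes among the members was described next. With each member thinned to 2000 UMIs, the variance over the mean, which is 1 for pure counting noise, had a median of 1.15 over 566 genes. It was led by Scgb1a1 (320), S100a9 (46.3), Cd74 (21.3) and S100a8 (19.8), followed by Chil3 (10.4), Lyz2 (9.82) and Cst3 (9.49). Among unmixed members it had a median of 1.13 over 579 genes, and 33 genes were over 2. Cd74 led there with 21.8: 335 of 417 unmixed members had 0 UMIs after thinning, and the highest had 55. H2-Aa and Cd74 had a rank correlation of 0.47 over these 417 barcodes of 1 library, given as a description. Dendritic markers were not part of the mixed criterion. Before thinning, 1 unmixed member held 551 of the 3461 MHC class II UMIs of the unmixed members. Whether foreign RNA added to the spread of Cd74 was not tested.

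Next among the unmixed members came Lyz2 (8.48), Fth1 (7.72), mt-Atp6 (6.82), Actb (6.44), Chil3 (6.40), Tmsb4x (5.80), Ftl1 (5.79), Cst3 (5.56), the metallothionein Mt1 (5.04), Ccl6 (4.43), mt-Co2 (4.21), Spp1 (4.19), mt-Co3 (3.82) and mt-Co1 (3.66). Lyz2, lysozyme M, had 16, 33 and 59 UMIs at the bottom decile, the median and the top decile. Chil3 had 15, 25 and 37 UMIs there and a maximum of 202. Spp1, osteopontin, was at 0 in 323 of 417 and reached 14. Krt79 and Chil3 had a rank correlation of -0.03, at means of 1.43 and 26.4 UMIs, and at so few UMIs such a value is limited by counting noise.

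Of 16 cell cycle genes 15 were measured, and 0 were higher and 0 lower in members (median -0.13). In unmixed members 1 was higher and 5 were lower (-0.92), beside 11% and 15.3% of all genes. Against monocyte-marked barcodes 7 of 14 were higher in members (1.03), where 8.12% of all genes were, and against neutrophil-marked barcodes 10 of 14 (1.43), where 14.1% were. Against interstitial macrophage-marked barcodes 0 of 15 were higher or lower (-0.03). At least 5 UMIs of 7 cycle genes were met in 42 members (7.49%, 5.45 to 9.99), of which 32 were mixed and 10 unmixed. The 10 had 661 CPM of Mki67 and 884 CPM of Top2a, with 24578 CPM of Chil3, 533 CPM of Krt79 and 15.9 CPM of C1qa. The other 412 unmixed members had 7.98 CPM of Mki67 and 3.66 CPM of Top2a, with 13146 CPM of Chil3, 696 CPM of Krt79 and 10.6 CPM of C1qa. A single barcode held 54.4% of the Chil3 UMIs of the 10, and without it they had 12881 CPM of Chil3. The genes Ear1, Ear2 and Fabp1 had 438, 963 and 669 CPM in the 10, against 1073, 2092 and 1515 CPM in the 412. These are genes of the rule, which asks for UMI numbers that a deeper barcode reaches at a lower CPM. The median depth was 12737.5 UMIs in the 10 and 7070.5 UMIs in the 412. The lower levels are thus bound up with the choice and are given as a description only.

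The same rule met hardly any barcodes in the organoids, although these were sequenced deeper. It took 561 of 7350 barcodes at day 0, 16 of 7893 at day 8 (0.203%, 0.116 to 0.329), 0 of 9311 at day 13 and 0 of 9178 at day 20. A count of 0 allows shares of up to 0.0396% and 0.0402% at days 13 and 20. Barcodes with at least 2 Tyrobp UMIs numbered 2341, 6702, 7233 and 5615, with median depths of 4628, 17366.5, 8805 and 11188 UMIs. The 16 at day 8 had 0 UMIs of Ear1, Krt79, Siglecf and Car4. They had 713 CPM of Ear2, 669 CPM of Chil3 and 9718 CPM of Fabp5, so Ear2 and Chil3 made up most of what met the rule. Other identity genes were present in the 16, with 745 CPM of Il18, 585 CPM of Atp6v0d2, 698 CPM of Mrc1 and 1665 CPM of Marco at day 8, against 931, 545, 766 and 689 CPM in the day 0 members. Plet1 (298 CPM), Lpl (785 CPM) and Abcg1 (284 CPM) lay below their day 0 levels of 564, 1454 and 1350 CPM.

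Over all barcodes with at least 2 Tyrobp UMIs, the identity genes divided into those near 0 in the organoids and those still present. Chil3 had 4282, 5.35, 2.74 and 0.0256 CPM at days 0, 8, 13 and 20. Krt79 had 218, 0.109, 0.133 and 0.0385 CPM, and Siglecf 35.4, 0.219, 0.254 and 0.295 CPM. Plet1 had 249, 14.0, 7.24 and 1.06 CPM and Abcg1 607, 80.8, 42.2 and 43.8 CPM. Marco had 317, 1183, 427 and 286 CPM, Mrc1 388, 825, 655 and 622 CPM, and Fabp5 408, 4733, 3374 and 3023 CPM. Day, culture, library and the makeup of the Tyrobp barcodes changed together, and their parts cannot be told apart.

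**Figure D5:**
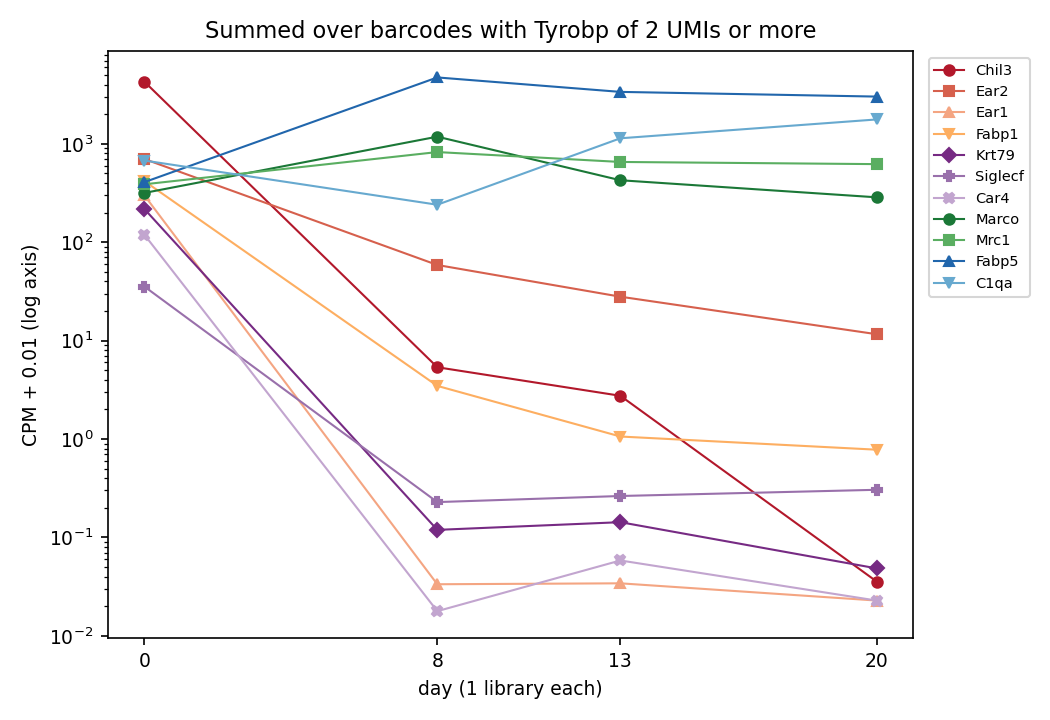
Lines give CPM + 0.01 (log axis) summed over barcodes with at least 2 Tyrobp UMIs, by day on the x axis, with 1 library a day. Chil3, Ear1, Fabp1, Krt79, Siglecf and Car4 fall away after day 0 to at most 5.35 CPM, while Marco, Mrc1, Fabp5 and C1qa stay at 240.6 CPM or more.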

How the data were processed

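Droplet libraries (10x 3' chemistry v3.1, per the labels' protocols) were made from 4 samples. The labels name nuclear RNA as the molecule, while the protocol describes cell suspensions. The deposited matrices hold whole UMI counts that are not normalized, from Cell Ranger 7.0.1 with mm10 per the submitters' processing notes. The gene annotation used by the authors, and any step against free RNA or doublets before deposit, is not given in the sources used here. Of the 22547 features, 19 symbols occur more than once.

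Counts were summed over barcodes and scaled to CPM, with Python 3.11.15 and SciPy 1.17.1. Intervals are exact Poisson for CPM, exact conditional for ratios and Clopper-Pearson for shares, at 95%. A side under 3 UMIs was set to 3. The members and lists were chosen with earlier results of these data known. Named genes are the 25 highest and 15 lowest ratios at 50 CPM or more, without mitochondrial, ribosomal, haemoglobin, immunoglobulin, T cell receptor, Xist and Y-linked genes, predicted models and the genes of the rule, then list genes, the reporters and the 15 most variable genes. Comparison barcodes took the marker list with the highest relative level, given at least 3 UMIs of it, and endothelial-marked barcodes had at least 3 UMIs of Pecam1, Cdh5 and Cldn5 and 0 of Tyrobp and Ptprc. Doublets were kept in the main values and removed in an alternative (Scrublet in Scanpy 1.11.5, whose automatic threshold called 3 of 7350). TMM factors came from edgeR 4.0.16, and promoters were aligned with Biopython 1.88. The comparison was tested on simulated data. Alternatives covered the cell filter, the thresholds of members and comparison, doublets, scaling, the CPM minimum, thinning and, chosen after seeing the data, mixed members and comparison barcodes near the rule. Of the list genes 1 is not reported here, while it stays in the counts and medians.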

Additional observations from a re-analysis of the deposited data

How the results depend on the processing

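The share of members was 6.30% with no cell filter, 11.4% with at least 1000 genes and at most 10% mitochondrial UMIs, 10.1% from 5 and 2 UMIs, 5.41% from 20 and 10 UMIs, 11.3% with the same rule on UMIs per 10000 and 5.74% without mixed members, against 7.63%. Genes higher and lower numbered 328 and 334 at a minimum of 50 CPM, 835 and 1835 with no minimum, 743 and 1035 without mixed members, and 836 and 1103 when the 480 comparison barcodes with at least 3 UMIs of Ear1, Ear2 and Fabp1 were left out too, against 496 and 633. Under TMM scaling, which moved all ratios by 0.0996 on the log2 scale, 569 were higher and 551 lower. Of 3519 ratios of 207 named or listed genes, all past the 2-fold threshold, under 17 alternatives, 3514 kept their sign. Their size was less stable: the ratio lay outside its main counting interval for 193 of the 207 without mixed members, 202 also without the 480, 117 without the 480 alone, 135 by mean CPM per barcode, 133 after thinning, 132 by UMIs per 10000, 119 from 20 and 10 UMIs and 104 from 5 and 2 UMIs, and for at most 60 under each other alternative. Those that changed sign were Scgb3a1 (-4.09 by UMIs per 10000, -1.54 without mixed members, -0.96 also without the 480) and the neutrophil gene Ltf (0.62 from 5 and 2 UMIs, 1.84 without neutrophil-marked barcodes). The cause was not tested, apart from Scgb3a1, whose UMIs lay in few barcodes.

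No paired analysis was possible because each day has 1 library and no result comes from a test. Depth limits single barcodes more than sums: after thinning to 2000 UMIs a gene under about 1 UMI per barcode is missed in many cells that carry it, and the thresholds of the rule reach more deep than shallow barcodes. The 561 members come from 1 library of an unstated number of animals, so their spread says nothing of the spread between mice.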
